A study of Rattus norvegicus with 15 samples.

Results

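The intermediate progenitor genes Eomes, Btg2, Hes6, Mfng, Insm1 and Gadd45g were chosen by name, and their rows were read from the gene counts of embryonic rat cortex. Of these 6 genes, 5 had a row and all 5 were tested, out of 15417 tested genes and 32623 genes in all, and Insm1 was not analysed here. The 15 libraries were made from frontal cortex that was taken from Wistar rat embryos at 3 embryonic stages that ran from E14.5 through E16.5 to E18.5. The mothers were either obese on a high-fat diet (HFD), with 60% of calories from fat, or fed normal chow (Control). All were mated with males described as healthy. No gene was altered in any group. Each of the 3 stages had 2 HFD and 3 Control libraries, and by the methods of the study the cortices of 1 whole litter were pooled for a library, so that a library averages over embryos and the replicate is the mother. Sequencing followed removal of ribosomal RNA, and levels are given as CPM, in which each count is set against its TMM-adjusted library total.

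Excitatory neurons of the cortex arise from radial glia, the stem cells that line the ventricle, either directly or through intermediate progenitors that move to the subventricular zone and divide there to give neurons. Cells that enter this path switch on proneural factors and Notch ligands, which hold their neighbours in the stem cell state, and later give way to neuronal genes. Eomes (Tbr2) is the T-box transcription factor that marks intermediate progenitors. Btg2 (Tis21) is an antiproliferative gene of progenitors that are about to produce neurons. Hes6 is a relative of the Notch effectors that in mouse counters Hes1 and favours neuronal differentiation. Mfng is a fringe glycosyltransferase that modifies Notch receptors. Gadd45g is a growth arrest gene induced in neurogenic progenitors. In the mouse the zinc finger factor Insm1 promotes the formation of these cells.

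Libraries held 5598195 to 9529978 counts. One library went against its label. The library labelled E18.5 Control replicate 1 lay at −60.1 on the first principal component, within the span of E14.5 (−88.8 to −35.0) and far from the remaining E18.5 libraries (58.3 to 70.1). Its nearest library was E14.5 Control replicate 1, at a root mean square difference of 0.51 in log2 CPM over all tested genes, against 0.49 to 0.75 between libraries of the same group. The other E18.5 Control libraries lay at 1.10 and 1.11 from it. Its values are given apart, and tests used the other 14 libraries, with the counts of calls over all 15 beside them. Of the excitatory cortical markers, Neurod6 was low at E14.5, as were Tbr1 and Eomes (values below), while Emx2 was not. Neurod6 was at 15.9 and 6.99 CPM in E14.5 HFD and at 6.68, 1.26 and 21.6 CPM in E14.5 Control libraries, against 127 to 247 CPM in all E16.5 libraries. Emx2 was at 50.6 and 39.6 CPM in E14.5 HFD and at 28.3, 43.3 and 54.8 CPM in E14.5 Control libraries, against 36.2 to 51.0 CPM at E16.5. The lens crystallin Cryaa, which the cortex should lack, was at 148 and 242 CPM in E14.5 HFD and at 132 to 146 CPM in E14.5 Control libraries, and at 0 to 0.395 CPM at the later stages in the 14 libraries.

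At E14.5 both HFD libraries lay below all Control libraries for Btg2, Hes6, Mfng and Gadd45g, at 0.61 to 0.69 of the Control level in the fit, while those of Eomes lay among them. None of these differences passed over all genes by edgeR, while DESeq2 called that of Btg2 (adjusted p = 0.000739). Btg2 (ENSRNOG00000003300) was at 48.6 and 37.5 CPM in HFD libraries and at 70.8, 65.7 and 73.9 CPM in Control libraries. Both HFD libraries lay below all 3 Control libraries, with no overlap. The log2 fold change of HFD over Control was −0.70 ± 0.12 (SE), and the adjusted p was 0.122 by edgeR's quasi-likelihood test with Benjamini-Hochberg adjustment over all tested genes.

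Gadd45g (ENSRNOG00000013090) gave a difference of the same size as Btg2. It was at 20.4 and 15.6 CPM in HFD libraries and at 31.4, 25.3 and 31.1 CPM in Control libraries, again with no overlap (log2 fold change −0.70 ± 0.17, SE, edgeR adjusted p = 0.239). Mfng (ENSRNOG00000008133) was at 31.4 and 29.3 CPM in HFD libraries and at 38.2, 41.0 and 52.99 CPM in Control libraries. The HFD libraries lay below all Control libraries, and Control replicate 3 was the highest (log2 fold change −0.54 ± 0.14, SE, edgeR adjusted p = 0.271). Hes6 (ENSRNOG00000020194) was at 86.4 and 70.5 CPM in HFD libraries and at 130, 88.8 and 125 CPM in Control libraries. The groups did not overlap, but HFD replicate 1 lay close to Control replicate 2 (log2 fold change −0.55 ± 0.17, SE, edgeR adjusted p = 0.321).

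Eomes (ENSRNOG00000042140), the defining gene of intermediate progenitors, behaved otherwise. It was at 19.1 and 15.99 CPM in HFD libraries and at 5.83, 13.9 and 31.2 CPM in Control libraries. The HFD libraries lay between the Control libraries, which themselves spread over a wide range. The log2 fold change was 0.02 ± 0.48 (SE, edgeR adjusted p = 0.999), and its interval of 2 SE ran from −0.94 to 0.98, which is too wide to tell a change of 1 log2 unit from none.

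**Figure D1:**
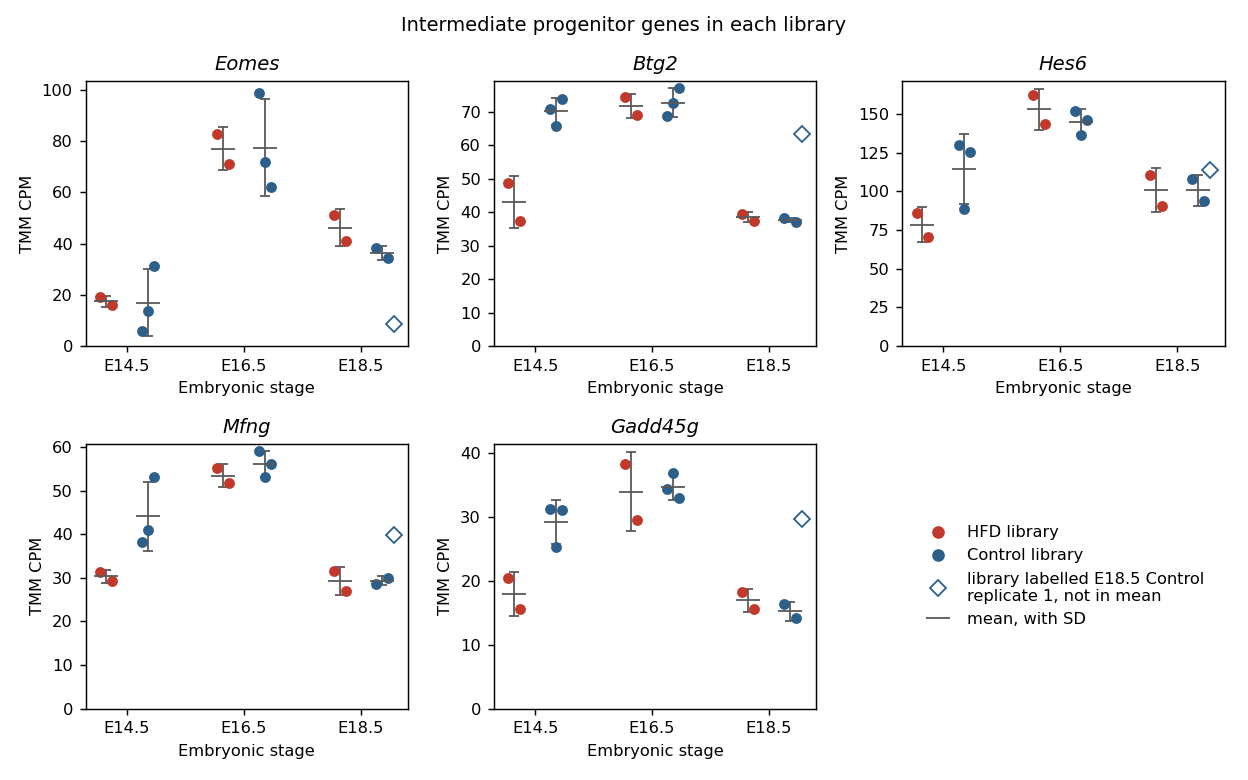
TMM CPM of each gene in every library, by embryonic stage, with HFD (red) left of Control (blue), the mean and SD as bars, and the library labelled E18.5 Control replicate 1 as an open diamond outside the mean. At E14.5 the HFD libraries lie below all Control libraries for Btg2, Hes6, Mfng and Gadd45g and between them for Eomes. At E16.5 and E18.5 the diets lie close together, except that at E18.5 both HFD libraries lie above both Control libraries in the mean for Eomes.

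None of the 5 genes passed at E14.5. Of all 15417 genes, 0 (0%) passed an adjusted p of 0.05 by edgeR's quasi-likelihood test, while 1483 genes had an unadjusted p under 0.05. DESeq2 called 97 genes, among them Btg2 and no other of the 5, and limma-voom called 0, with 1787 genes at an unadjusted p under 0.05. With all 15 libraries edgeR also called 0, with 697 genes at an unadjusted p under 0.05. At an unadjusted p under 0.05 in edgeR, 4 of the 5 genes lay lower in HFD, against 4.96% of all genes. HFD and Control libraries did not overlap, with HFD lower, for the same 4 genes, against 10.1% of all genes. The count depended on single Control libraries. Without E14.5 Control replicate 2, 3 of the 5 genes passed (Btg2 at an edgeR adjusted p of 0.0365, Hes6 at 0.0385 and Gadd45g at 0.0471), with 211 genes called over all, and without E14.5 Control replicate 1, 1 of the 5 passed, with 194 genes called over all. In these bulk samples, fewer cells of a type and less RNA per cell cannot be told apart.

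The 4 genes whose groups did not overlap are shown with the sequence ahead of their start sites where it was matched, since they lay lower together. RefSeq windows of 300 bases on the GRCr8 assembly, from 250 bases before to 50 after the start, were matched by symbol for Eomes, Btg2, Hes6 and Gadd45g, that is for 4 of the 6 genes. The counts themselves were made on rn6, and no coordinate was carried between the assemblies. The windows shown are Btg2 (chr13:48087641-48087940), Gadd45g (chr17:13530302-13530601) and Hes6 (chr9:99451047-99451346), all on the minus strand and written 5′ to 3′ along the gene, with capitals for matches on either strand to the E-box CANNTG, which proneural factors bind, and to TCACAC, a part of the T-box site.
Btg2: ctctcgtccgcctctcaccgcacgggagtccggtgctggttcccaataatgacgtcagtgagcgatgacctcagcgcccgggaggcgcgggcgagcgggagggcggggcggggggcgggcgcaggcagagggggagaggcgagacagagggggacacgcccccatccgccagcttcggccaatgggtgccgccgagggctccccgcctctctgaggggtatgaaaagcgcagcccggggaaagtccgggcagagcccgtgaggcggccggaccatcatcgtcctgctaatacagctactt
Gadd45g: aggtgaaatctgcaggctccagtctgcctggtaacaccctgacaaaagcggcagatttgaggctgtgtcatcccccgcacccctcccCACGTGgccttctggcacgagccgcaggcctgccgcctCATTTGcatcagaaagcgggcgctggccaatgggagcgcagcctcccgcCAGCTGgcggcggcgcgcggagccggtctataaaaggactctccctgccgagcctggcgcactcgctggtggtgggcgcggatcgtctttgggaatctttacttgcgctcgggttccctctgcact
Hes6: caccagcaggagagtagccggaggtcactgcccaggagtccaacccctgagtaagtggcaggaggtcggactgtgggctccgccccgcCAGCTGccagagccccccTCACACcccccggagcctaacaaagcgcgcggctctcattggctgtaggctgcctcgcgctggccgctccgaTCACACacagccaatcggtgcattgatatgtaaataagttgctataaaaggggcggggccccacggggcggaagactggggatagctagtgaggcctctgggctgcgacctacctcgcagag
The Gadd45g window holds E-boxes that begin at 163 bases (CACGTG), at 125 bases (CATTTG) and at 76 bases (CAGCTG) before the start. The Hes6 window holds CAGCTG at 162 bases and TCACAC at 144 and 72 bases before the start. No such letters are in the Btg2 window, nor in that of Eomes on chromosome 8. CANNTG was in 72.1% of 33469 promoter windows and TCACAC in 13.7%. The narrower E-box CAGATG, in 16.6% of windows, and GTGGGAA, the site of the Notch effector RBPJ, in 6.29% of windows, were in none of the 4 windows. Every CAGATG is also a match to CANNTG. A match describes the letters only.

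At E16.5 the diets gave nearly the same levels. Btg2 was at 74.4 and 69.1 CPM in HFD libraries and at 68.6, 72.5 and 77.1 CPM in Control libraries, and Hes6 was at 163 and 144 CPM in HFD libraries and at 152, 137 and 147 CPM in Control libraries. HFD and Control libraries overlapped for both genes. The log2 fold changes of Btg2, Hes6, Mfng and Gadd45g lay between −0.07 and 0.08, with SE of 0.12 to 0.16, and that of Eomes was −0.0049 ± 0.44 (SE). The interval of 2 SE for Btg2 ran from −0.26 to 0.21. Of the 5 genes 0 passed, as did 0% of all genes, by edgeR's quasi-likelihood test (adjusted p = 1 for each), and 0 of the 5 had an unadjusted p under 0.05. Over all genes 364 had an unadjusted p under 0.05, and 0 were called by DESeq2 and 2 by limma-voom.

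At E18.5 the picture was alike for Btg2, Hes6, Mfng and Gadd45g. Btg2 was at 39.5 and 37.5 CPM in HFD libraries and at 38.2 and 37.2 CPM in Control libraries (log2 fold change 0.03 ± 0.13, SE). Eomes was at 51.3 and 41.2 CPM in HFD libraries and at 38.2 and 34.4 CPM in Control libraries, so that both HFD libraries lay above both Control libraries. Such a separation with HFD higher was met by 14.1% of all genes, and the log2 fold change of Eomes was 0.35 ± 0.50 (SE). Hes6 (−0.00066 ± 0.18), Mfng (−0.0058 ± 0.16) and Gadd45g (0.15 ± 0.19) had HFD and Control libraries that overlapped. By edgeR's quasi-likelihood test 0 of the 5 genes passed, as did 0% of all genes (adjusted p = 1 for each), and 0 of the 5 had an unadjusted p under 0.05, while 244 genes over all had an unadjusted p under 0.05, and DESeq2 called 12 genes, limma-voom 0 and edgeR with all 15 libraries 1, none of the 5 among them.

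**Figure D2:**
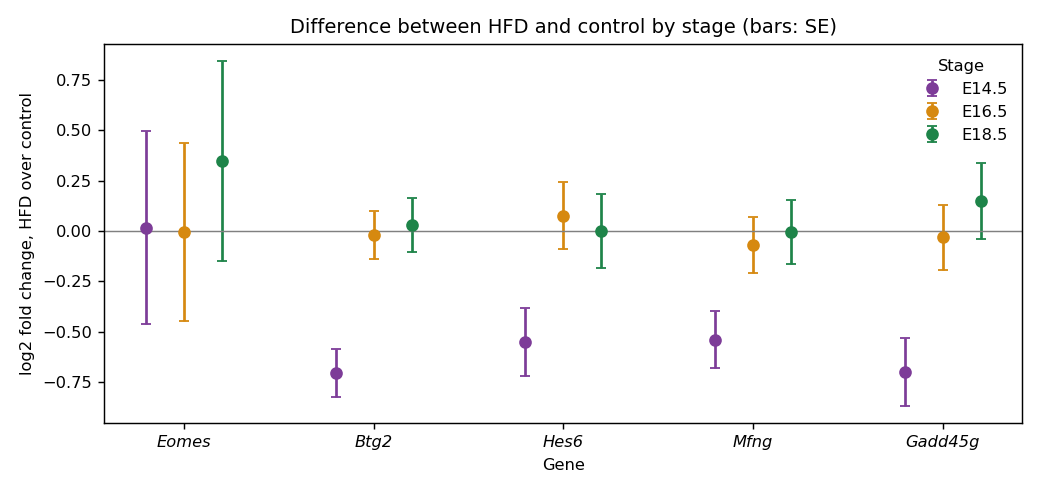
The log2 fold change of HFD over Control for each gene at each of the 3 stages, with bars of 1 SE from the edgeR fit over 14 libraries. Btg2, Hes6, Mfng and Gadd45g lie between −0.70 and −0.54 at E14.5 and within 0.15 of 0 at the later stages, and the bars of Eomes span 0 at each stage.

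Whether the diet difference itself changed with stage was tested over the 3 stages together. The unadjusted p was 0.00165 for Btg2, 0.0105 for Gadd45g, 0.0435 for Mfng, 0.0435 for Hes6 and 0.849 for Eomes by edgeR's quasi-likelihood test. After Benjamini-Hochberg adjustment over all genes the lowest of these was 0.530, for Btg2, so that a change of the diet difference with stage was not established for any of the 5 genes. Of all genes 0% passed, and DESeq2 called 30 genes, none of the 5 among them. Averaged over the 3 stages, Btg2 had a log2 fold change of −0.23 ± 0.07 (SE) and Mfng of −0.20 ± 0.08 (SE). Hes6, Gadd45g and Eomes were at −0.16 ± 0.10, −0.19 ± 0.10 and 0.12 ± 0.27 (SE). In this average 0 of the 5 genes passed, as did 0% of all genes (edgeR adjusted p = 1.00 for each), and DESeq2 called 4 genes.

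The wider path was read from 17 other genes of intermediate progenitors and neurogenic cells, all 17 of which were tested. This list was chosen with earlier results of these data known, so its counts are a description and no independent test. At E14.5 16 of them had a negative log2 fold change and 1 a positive one, with a median of −0.43, against −0.55 for the 5 intermediate progenitor genes and −0.02 for all genes. None passed by edgeR, and 8 had an unadjusted p under 0.05, all with HFD lower, against 4.96% of all genes. Groups did not overlap, with HFD lower, for 7 of the 17, against 10.1% of all genes. The 3 with the smallest p were the Notch ligands Dll1 and Dll3 and the small GTPase Rnd2, a target of Neurog2 in migrating neurons of the mouse.

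Dll3 was at 23.7 and 15.4 CPM in HFD libraries and at 41.98, 37.8 and 37.4 CPM in Control libraries, with no overlap (log2 fold change −1.002 ± 0.20, SE, edgeR adjusted p = 0.177). Dll1 was at 64.2 and 57.9 CPM in HFD libraries and at 87.6, 93.9 and 116 CPM in Control libraries, again with no overlap (−0.70 ± 0.13, SE, edgeR adjusted p = 0.177). Rnd2 was at 54.0 and 37.1 CPM in HFD libraries and at 75.6, 57.4 and 89.2 CPM in Control libraries, where HFD replicate 1 came close to Control replicate 2 (−0.70 ± 0.19, SE, edgeR adjusted p = 0.274). DESeq2 called Dll1 (adjusted p = 0.00095) and Dll3 (adjusted p = 0.0074) and not Rnd2. Without E14.5 Control replicate 2 all 3 passed by edgeR, at an adjusted p of 0.0376 for Dll1, 0.0473 for Dll3 and 0.0399 for Rnd2, and without E14.5 Control replicate 1 Dll1 passed at 0.0172. Dll1 and Dll3 thus had values on the same side as Btg2 and Mfng. At E16.5 the medians were −0.0027 over the 17 genes and −0.02 over the 5, and at E18.5 they were 0.04 and 0.03.

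At E16.5 the smallest p values among the 17 belonged to the microfibril protein Mfap4, Rnd2 and the proneural factor Neurod1, and none passed (edgeR adjusted p = 1). Rnd2 was at 0.19 ± 0.18 and Neurod1 at −0.11 ± 0.15 on the log2 scale (SE). Mfap4 varied widely between libraries of 1 group, at 2.91 and 10.7 CPM in HFD and at 36.3, 10.01 and 5.41 CPM in Control. At E18.5 Mfap4 had 0 counts in both HFD libraries and was at 3.99 and 1.45 CPM in Control libraries. The transcription factors Tfap2c (0.48 ± 0.31) and Nhlh1 (0.20 ± 0.20) followed it by p at E18.5, on the log2 scale with SE, and did not pass either.

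Markers of other tissues also had values that differed with the diet at E14.5. Of the head mesenchyme list 12 of 13 genes were tested, and all 12 had a positive log2 fold change, with a median of 0.74, 6 of them at an unadjusted p under 0.05 and 0 past the adjusted threshold by edgeR. The head mesenchyme factor Twist1 was at 91.0 and 106 CPM in HFD libraries and at 68.2, 53.6 and 29.0 CPM in Control libraries. The summed level of the list was 4907 and 4386 CPM in HFD libraries and 5871, 3187 and 1800 CPM in Control libraries, so that Control replicate 1 was the highest of all. The mean log2 CPM of the list, which weighs each gene alike, did not overlap. It was 6.76 and 6.99 in HFD libraries and 6.65, 6.23 and 5.31 in Control libraries. Skeletal muscle genes summed to 97.5 and 42.8 CPM in HFD libraries and to 88.9, 6.07 and 6.15 CPM in Control libraries. Of the 8 muscle genes 6 were tested, and all 6 had a positive log2 fold change, with a median of 1.45. By edgeR 2 of them had an unadjusted p under 0.05 and 0 passed the adjusted threshold. Diencephalon genes lay on the same side as Btg2, with 8 of 8 at a negative log2 fold change, a median of −0.69, 3 at an unadjusted p under 0.05 and 0 past the adjusted threshold by edgeR. They summed to 228 and 139 CPM in HFD libraries and to 279, 242 and 312 CPM in Control libraries, with no overlap. Lens and retina genes, of which 5 of 8 were tested, summed to 218 and 338 CPM in HFD libraries and to 182, 185 and 212 CPM in Control libraries, also with no overlap. Of these sums Cryaa alone held 148 and 242 CPM in HFD and 132 to 146 CPM in Control libraries. Of the 5 tested, 2 had a positive and 3 a negative log2 fold change, with a median of −0.07. By edgeR 0 of the 5 had an unadjusted p under 0.05. The part of skeletal muscle, diencephalon, lens and retina tissue in the values of the intermediate progenitor genes was not tested. With the mean of the head mesenchyme genes as a covariate, the log2 fold changes at E14.5 were −0.63 for Btg2, −0.62 for Gadd45g, −0.46 for Hes6, −0.22 for Mfng and 1.51 for Eomes, and none passed (lowest edgeR adjusted p = 0.328, for Eomes). Since this mean was itself higher in both HFD libraries, the fit cannot separate tissue content from the diet at E14.5.

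The summed level of radial glia genes was also lower with HFD at E14.5. Of the 13 genes 8 had a negative and 5 a positive log2 fold change, with a median of −0.45, and 0 passed by edgeR. At an unadjusted p under 0.05 in edgeR 5 lay lower in HFD and 0 higher, against 4.96% of all genes that lay lower. They summed to 2673 and 2566 CPM in HFD libraries and to 2938, 3182 and 3264 CPM in Control libraries, with no overlap. Set against this sum, Btg2 was at 18.2 and 14.6 counts per 1000 radial glia counts in HFD libraries and at 24.1, 20.7 and 22.6 in Control libraries. Mfng was at 11.8 and 11.4 in HFD libraries and at 13.01, 12.9 and 16.2 in Control libraries, and Gadd45g at 7.65 and 6.07 in HFD libraries and at 10.7, 7.95 and 9.52 in Control libraries. On this scale those 3 genes had no overlap between the diets. Hes6 overlapped, at 32.3 and 27.5 in HFD libraries and at 44.3, 27.9 and 38.4 in Control libraries. The share of all genes without overlap on this scale was not counted. With libraries scaled to the radial glia sum, a choice made after the values were seen, the log2 fold changes were −0.45 for Btg2, −0.45 for Gadd45g, −0.30 for Hes6, −0.28 for Mfng and 0.30 for Eomes, and none passed (lowest edgeR adjusted p = 0.152, for Btg2).

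Newborn and projection neuron genes, which lie downstream of intermediate progenitors, summed to 2048 and 1389 CPM in HFD libraries and to 2578, 1472 and 3394 CPM in Control libraries at E14.5, and the groups overlapped. Proliferation genes summed to between 1926 and 2038 CPM in HFD and between 1621 and 2616 CPM in Control libraries. Btg2 and Gadd45g can also be induced by stress, so the lists of immediate early genes and of p53 targets were read beside them. Immediate early genes summed to 164 and 165 CPM in HFD and to between 144 and 155 CPM in Control libraries, and p53 targets to between 187 and 191 CPM in HFD and between 181 and 207 CPM in Control libraries. The immediate early sums of both HFD libraries thus lay above all Control libraries by a small margin, and those of p53 targets overlapped. Of 8 tested immediate early genes 0 and of 7 tested p53 targets 1 had an unadjusted p under 0.05 in the diet contrast at E14.5, and 0 of either list passed by edgeR. Their part in the values of Btg2 and Gadd45g was not tested.

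**Figure D3:**
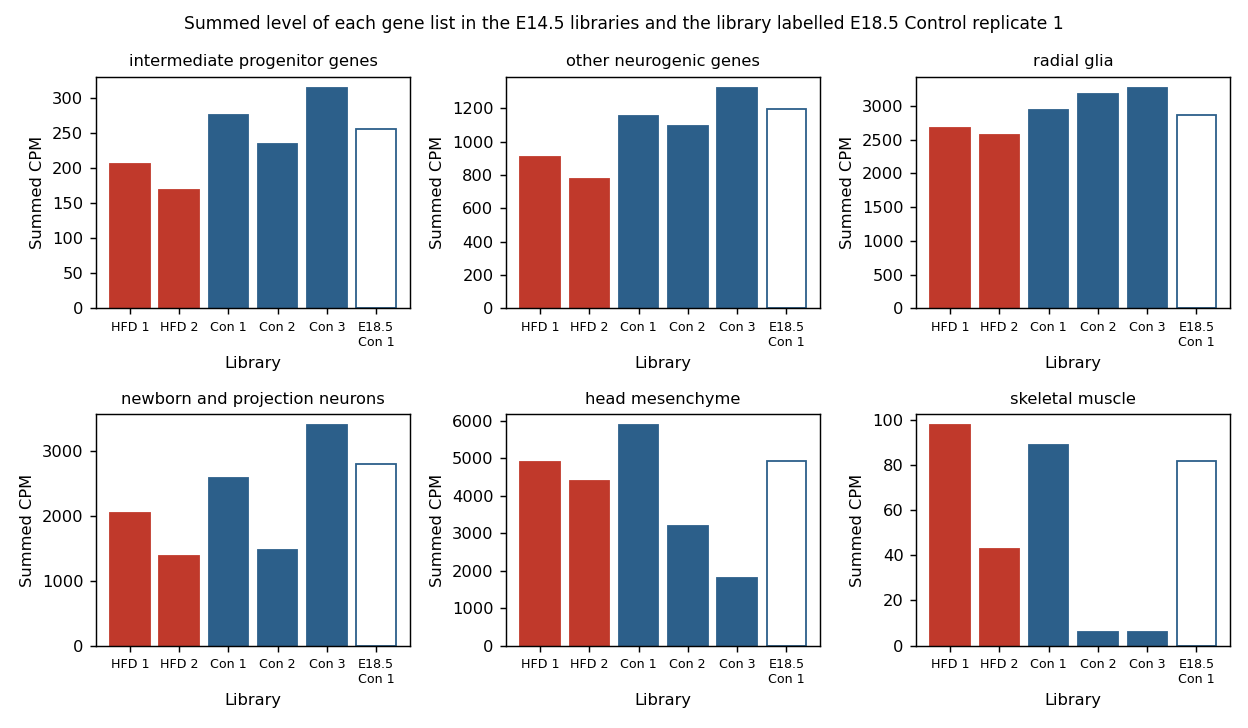
Summed CPM of 6 gene lists in the 2 HFD (red) and 3 Control (blue) libraries of E14.5 and in the library labelled E18.5 Control replicate 1 (open bar), 1 bar per library. Intermediate progenitor, other neurogenic and radial glia sums lie lower in both HFD libraries than in all E14.5 Control libraries, while head mesenchyme and muscle sums overlap between the diets. The mean log2 CPM of the head mesenchyme genes, not drawn, lies higher in both HFD libraries than in all E14.5 Control libraries.

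The library labelled E18.5 Control replicate 1 had E14.5-like levels of Eomes, Btg2, Gadd45g and Mfng as well. Eomes was at 8.52 CPM in it, below both other E18.5 Control libraries and inside the E14.5 Control range. Btg2 was at 63.4 CPM, Gadd45g at 29.7 CPM and Mfng at 39.9 CPM, all above the other E18.5 libraries of either diet. Hes6 was at 114 CPM, the highest of the E18.5 libraries by a small margin over E18.5 HFD replicate 1 at 111 CPM. E14.5 Control libraries spanned 88.8 to 130 CPM, so Hes6 does not set these stages apart. The summed level of its head mesenchyme genes was 4929 CPM, against 1274 and 791 CPM in E18.5 Control replicates 2 and 3.

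Across stages, Eomes rose strongly between E14.5 and E16.5 with either diet. In HFD libraries it was at 82.8 and 71.0 CPM at E16.5 and at 19.1 and 15.99 CPM at E14.5, a log2 fold change of 2.13 ± 0.51 (SE, edgeR adjusted p = 0.00959). In Control libraries it was at 98.7, 71.7 and 61.9 CPM at E16.5 and at 5.83, 13.9 and 31.2 CPM at E14.5, a log2 fold change of 2.16 ± 0.42 (SE, edgeR adjusted p = 0.00542). The stages did not overlap within either diet, and the share of all genes with such a separation was not counted. The mean at E14.5 was 22.8% of the E16.5 mean in HFD and 21.9% in Control.

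Btg2, Hes6, Mfng and Gadd45g rose between E14.5 and E16.5 in HFD, where all 5 genes passed with higher levels, against 18.2% of all genes that passed higher and 12.7% that passed lower. The log2 fold changes in HFD were 0.74 ± 0.13 for Btg2, 0.96 ± 0.18 for Hes6, 0.81 ± 0.15 for Mfng and 0.92 ± 0.18 for Gadd45g (SE, edgeR adjusted p of 0.0013 to 0.00229). In Control only Eomes of the 5 passed, against 13.4% of all genes that passed higher and 9.8% that passed lower. There the log2 fold changes were 0.05 ± 0.11 for Btg2, 0.34 ± 0.15 for Hes6, 0.34 ± 0.12 for Mfng and 0.25 ± 0.14 for Gadd45g (SE, edgeR adjusted p of 0.065 to 0.758). The E14.5 mean of Btg2 was 60.0% of the E16.5 mean in HFD and 96.4% in Control. For Gadd45g the same shares were 52.9% in HFD and 84.1% in Control. This contrast between diets rests on the same E14.5 libraries as the diet difference at E14.5 and was tested only by the test of diet by stage given above.

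With all 15 libraries in the fit, 5 of the 5 genes passed in HFD and 0 in Control between E14.5 and E16.5. Over all genes that fit called 2585 in HFD and 0 in Control. In Control, 0 of the 5 passed when only the groups compared were fitted, with 1769 genes called over all. Without E14.5 Control replicate 3, 2 passed (Eomes, at a log2 fold change of 2.92, and Mfng, at 0.50), with 4191 genes called over all. In HFD, Eomes did not pass without E14.5 HFD replicate 2 and the other 4 did. Head mesenchyme genes fell in the same step, with 11 of 12 tested genes called lower in HFD (median log2 fold change −3.77) and 12 of 12 in Control (median −2.57). Their mean log2 CPM was 6.76 and 6.99 in E14.5 HFD libraries and 5.31 to 6.65 in E14.5 Control libraries, against 2.59 to 3.31 in all later libraries. With this mean as a covariate, 0 of the 5 genes passed in either diet. Over all genes, 1 was called in Control and 0 in HFD. The log2 fold change of Eomes turned to −4.13 in HFD and −1.93 in Control, and that of Mfng to −0.77 in HFD and −0.74 in Control. The tissue content and the stage cannot be told apart between E14.5 and E16.5.

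From E16.5 to E18.5, the levels of Btg2, Mfng and Gadd45g fell with both diets. In HFD 3 of the 5 genes passed with lower levels, against 3.84% of all genes that passed lower and 2.04% that passed higher. The log2 fold changes were −0.90 ± 0.13 for Btg2, −0.87 ± 0.16 for Mfng and −1.01 ± 0.18 for Gadd45g (SE, edgeR adjusted p of 0.00356 to 0.00827). In Control the same 3 genes passed, against 5.4% of all genes that passed lower and 4.86% that passed higher, with −0.95 ± 0.12 for Btg2, −0.93 ± 0.14 for Mfng and −1.18 ± 0.17 for Gadd45g (SE, edgeR adjusted p of 0.0013 to 0.00296). Proliferation genes fell in the same step, with 9 of 9 tested genes called lower in HFD (median log2 fold change −1.18) and 9 of 9 in Control (median −1.17), and their part in the values of Btg2, Mfng and Gadd45g was not tested. At E18.5 Btg2 stood at 53.6% of its E16.5 mean in HFD and at 51.8% in Control.

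Hes6 and Eomes did not pass between E16.5 and E18.5. Hes6 was at −0.60 ± 0.18 in HFD (SE, edgeR adjusted p = 0.076) and −0.53 ± 0.17 in Control (SE, edgeR adjusted p = 0.0679) on the log2 scale. Eomes was at 51.3 and 41.2 CPM in E18.5 HFD libraries, against 82.8 and 71.0 CPM at E16.5 (−0.74 ± 0.49, edgeR adjusted p = 0.427), and at 38.2 and 34.4 CPM in E18.5 Control libraries, against 98.7, 71.7 and 61.9 CPM at E16.5 (−1.09 ± 0.46, edgeR adjusted p = 0.166). Within either diet the Eomes libraries of the stages did not overlap, but the share of all genes with such a separation was not counted. In HFD, Hes6 stood at 65.9% and Eomes at 60.1% of the E16.5 mean. With only the groups compared in the fit, all 5 genes passed in either diet, with 1520 genes called over all in HFD. With all 15 libraries 0 of the 5 passed in either diet. Over all genes, that fit called 0 in Control and 1 in HFD. The calls of this step in HFD also depended on single libraries. Without E18.5 HFD replicate 2 or E16.5 HFD replicate 1, a single library was left in the group, and calls fell for these genes and over all genes alike. Without E18.5 HFD replicate 2 the log2 fold changes were −0.86 for Btg2, −0.76 for Mfng and −0.89 for Gadd45g. Without E16.5 HFD replicate 1 they were −0.85, −0.82 and −0.81.

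**Figure D4:**
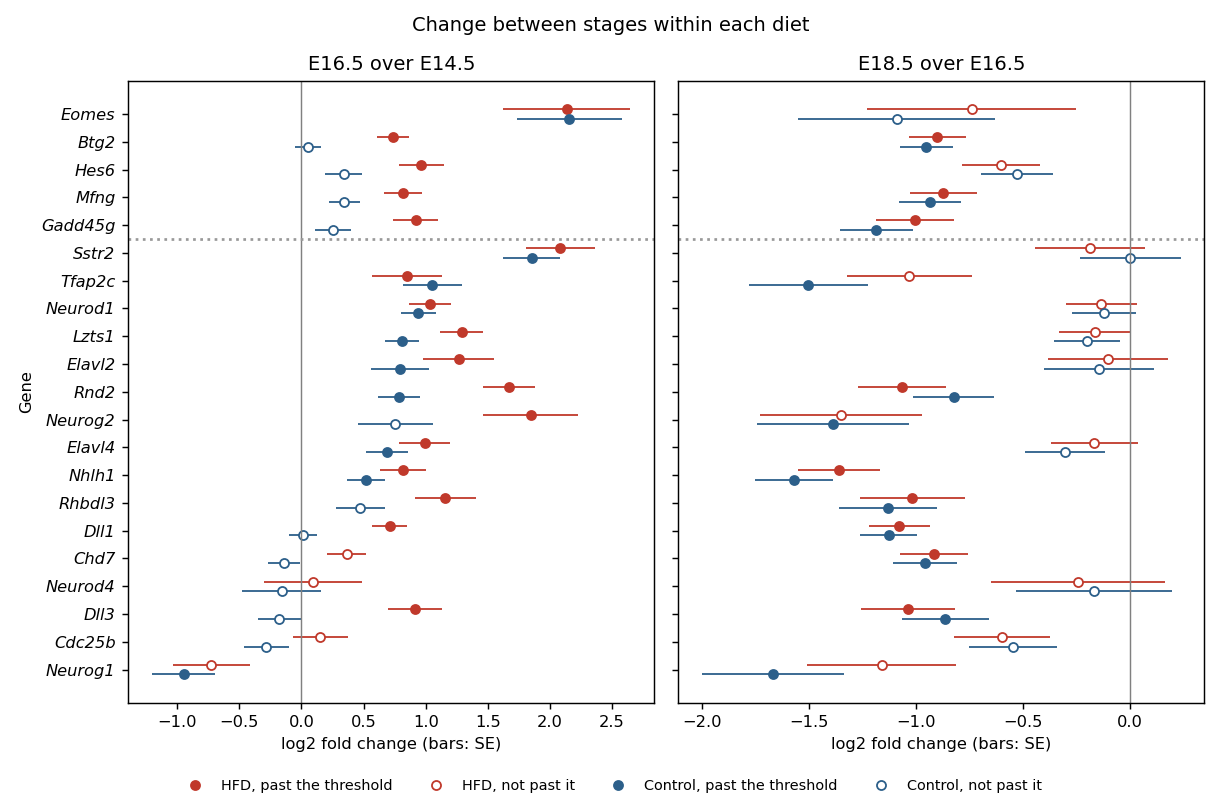
The log2 fold change of E16.5 over E14.5 (left) and of E18.5 over E16.5 (right) in HFD (red) and Control (blue), with bars of 1 SE, for the 5 intermediate progenitor genes above the dotted line and 16 of the 17 other neurogenic genes below it (Mfap4, with 0 counts in a whole group, is left out). Filled points passed an adjusted p of 0.05 in edgeR. Eomes passed with both diets on the left, and Btg2, Mfng and Gadd45g passed with both diets on the right.

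The 17 other genes were read over the same steps. Between E14.5 and E16.5 12 passed higher and 0 lower in HFD, against 18.2% of all genes higher and 12.7% lower, and 8 passed higher and 1 lower in Control, against 13.4% higher and 9.8% lower. Sstr2, a somatostatin receptor, rose by 2.08 ± 0.28 in HFD and 1.85 ± 0.23 in Control on the log2 scale (SE), and Neurod1 by 1.04 ± 0.17 in HFD and 0.94 ± 0.14 in Control. Lzts1, which promotes delamination of neurogenic cells in mouse, rose by 1.29 ± 0.17 in HFD and 0.81 ± 0.14 in Control. Rnd2 rose by 1.67 ± 0.21 in HFD and 0.78 ± 0.17 in Control. The proneural factor Neurog1 was at −0.73 ± 0.31 in HFD, where it did not pass (edgeR adjusted p = 0.0989), and fell by 0.95 ± 0.25 in Control. Under the head mesenchyme covariate the signs of Rnd2, Neurod1 and Neurog1 turned in Control, and that of Neurod1 also in HFD.

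Between E16.5 and E18.5 0 passed higher in either diet, while 6 passed lower in HFD, against 3.84% of all genes, and 9 in Control, against 5.4%. Dll1 fell by 1.08 ± 0.14 in HFD and 1.13 ± 0.13 in Control on the log2 scale (SE), and Nhlh1 by 1.36 ± 0.19 in HFD and 1.57 ± 0.18 in Control. The chromatin remodeller Chd7 fell by 0.92 ± 0.16 in HFD and 0.96 ± 0.15 in Control. Rnd2 fell by 1.07 ± 0.21 in HFD and 0.82 ± 0.19 in Control. Tfap2c was at −1.03 ± 0.29 in HFD, where it did not pass (edgeR adjusted p = 0.0601), and fell by 1.503 ± 0.28 in Control. Sstr2, Neurod1 and Lzts1 did not pass in this step in either diet, at −0.20 to 0.0039 on the log2 scale. Of 13 radial glia genes, 5 fell in HFD and 7 in Control in the same step, against the same shares of all genes.

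The course of each gene over the 14 libraries was compared with that of 13055 genes at a mean of at least 1 CPM, by the root mean square difference of log2 CPM after centring each gene. These values are a description, since the libraries share stage, depth and tissue content. Btg2 was closest to the receptor Notch1 (0.11), the activin receptor Acvr2b (0.12) and Dll1 (0.13). Mfng was closest to Notch1 (0.14), Efhd2 (0.15) and Btg2 (0.16), and Gadd45g to Btg2 (0.13), Notch1 (0.14) and Dll1 (0.17). Hes6 was closest to the cell cycle kinase Cdk6 (0.16), Zfp536 (0.16) and Phlpp1 (0.17). Nearest to Eomes were Tbr1, a T-box factor of early projection neurons, at 0.38 and the receptor Tshr at 0.38. Between Eomes and the other 4 genes the difference was 0.95 to 1.11, while among those 4 it was 0.13 to 0.28. This measure grows with the spread of a gene, and the SD of log2 CPM was 1.15 for Eomes and 0.37 to 0.52 for the other 4, so that the differences from Eomes also hold its larger spread and do not compare the shape of the courses. Tbr1, the gene nearest to Eomes, was at 31.1 and 25.4 CPM in E14.5 HFD and at 10.6, 21.6 and 50.3 CPM in E14.5 Control libraries.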

How the data were processed

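The authors deposited 1 table whose unit is the estimated count per gene (an expected count, held as whole numbers), not normalised, and it was used as deposited. Per the study's methods, reads were aligned with Bowtie2 to rn6 and counted with RSEM 1.2.12, while the submitters' processing notes name HTSeq, so the handling of reads shared by similar genes is uncertain. Whether strand was used in counting is not given. Libraries held 5598195 to 9529978 counts, which limits the precision of low genes. Gene names came from the table.

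Samples were grouped by the stage and diet in their labels into 6 groups. Genes were kept with filterByExpr over all 15 libraries, which left 15417, and scaled with TMM. Genes were tested in R 4.3.3 by the quasi-likelihood method of edgeR 4.0.16 (robust, 1 mean for each group) over 14 libraries, leaving apart the library labelled E18.5 Control replicate 1, and Benjamini-Hochberg adjustment over all tested genes, at a threshold of 0.05. Standard errors are the size of the log2 fold change over the root of the F statistic, and intervals cover 2 SE. The p-values measure the spread between litters. Log2 CPM had a prior count of 2. Alternatives were all 15 libraries, RLE and upper-quartile factors, other filters, DESeq2 1.42.0, limma-voom (limma 3.58.1), a replicate block, a head mesenchyme covariate, only the groups compared, leaving out each library, and, added after the values were seen, scaling to the radial glia list.

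The genes, the gene lists and the tests were chosen with earlier results of these data known. Named were all 6 genes, up to 4 per direction and contrast of the 17 other neurogenic genes (or the 3 of smallest p), the 3 genes nearest to each gene in course, and defining markers, apart from 1 gene that is not reported here. Promoter windows came from RefSeq (GRCr8), matched by symbol.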

Additional observations from a re-analysis of the deposited data

How the results depend on the processing

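For the 5 intermediate progenitor genes, 1 change of processing at a time was applied to each comparison. Members called at E14.5 between the diets, 0 as reported, were 1 with DESeq2 and 0 to 3 when 1 library was left out. Between E14.5 and E16.5, the 1 call in Control became 0 with all 15 libraries, 0 with the head mesenchyme covariate, 0 with only the groups compared, 3 with the replicate block and 1 to 2 when 1 library was left out, and the 5 calls in HFD became 0 with the head mesenchyme covariate. Between E16.5 and E18.5, the 3 calls became 0 with all 15 libraries and 5 with only the groups compared in either diet, and 0 to 4 in HFD when 1 library was left out. The cause was not tested.

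Counts over all genes were likewise dependent. Between the diets at E14.5, the 0 calls became 4 with no low-count filter, 97 with DESeq2 and 0 to 211 when 1 library was left out. At E18.5, they became 12 with DESeq2, 3 with only the groups compared, 1 with upper-quartile factors and 1 with the radial glia scaling. Between E14.5 and E16.5 in Control, 3578 genes became 0 with all 15 libraries, 1 with the head mesenchyme covariate and 1769 with only the groups compared, and in HFD 4761 became 2585 with all 15 libraries and 0 with the covariate. Between E16.5 and E18.5, 1582 in Control became 0 with all 15 libraries, and 907 in HFD became 1 with all 15 libraries and 1520 with only the groups compared. When 1 library was left out, the counts between E14.5 and E16.5 were 2278 to 4191 in Control and 2459 to 5151 in HFD, and those between E16.5 and E18.5 were 265 (without E18.5 Control replicate 2) to 2272 in Control and 59 (without E18.5 HFD replicate 2) to 1435 in HFD.

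Signs turned mostly where the reported log2 fold change lay near 0. For the diets at E16.5, Eomes turned to 0.0042 with no low-count filter, 0.026 with limma-voom, 0.084 with the replicate block and 0.046 with the radial glia scaling, which also gave 0.0395 for Btg2 and 0.015 for Gadd45g. For the diets at E18.5, Hes6 turned to 0.0029 with RLE factors, 0.00105 with upper-quartile factors, 0.00097 with at least 10 counts in every library and 0.0041 with DESeq2, and Mfng to 0.054 with the replicate block. All 15 libraries gave −0.26 for Btg2, −0.24 for Gadd45g and −0.44 for Nhlh1, the covariate −0.23 for Eomes and −0.0028 for Btg2, and the radial glia scaling −0.0027 for Btg2. Between E14.5 and E16.5, the covariate turned Eomes to −1.93, Btg2 to −0.20, Mfng to −0.74, Gadd45g to −0.022, Rnd2 to −0.20, Neurod1 to −0.029 and Neurog1 to 0.54 in Control, and Eomes to −4.13, Mfng to −0.77 and Neurod1 to −0.38 in HFD, and upper-quartile factors turned Btg2 to −0.033 in Control.

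When 1 library was left out, signs turned for the diet contrast of Eomes at E14.5 (−0.36 to 0.78), E16.5 (−0.14 to 0.20) and on average (−0.00697 to 0.375), of Btg2 at E16.5 (−0.0744 to 0.0305) and E18.5 (−0.0079 to 0.069), of Hes6 at E16.5 (−0.016 to 0.16) and E18.5 (−0.15 to 0.14), of Gadd45g at E16.5 (−0.23 to 0.14) and of Mfng at E18.5 (−0.12 to 0.11). None of these signs was called in the reported fit.

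The labels do not state that replicate numbers pair the libraries. The correlation of deviations from the group means between libraries of the same number was 0.16 and 0.24 at E14.5, 0.18 and 0.085 at E16.5 and −0.13 at E18.5. Between HFD and Control libraries of different number it ran from −0.24 to 0.13 over the stages. With 2 HFD libraries in a group their deviations mirror each other, so these values cannot decide whether the numbers pair libraries. The replicate block called Hes6 and Mfng in Control between E14.5 and E16.5 (log2 fold changes of 0.35 each) and Hes6 between E16.5 and E18.5 (−0.61 in HFD, edgeR adjusted p = 0.0287, and −0.46 in Control, edgeR adjusted p = 0.0437), and left 0 of the 5 genes called between the diets.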
